A study of Mus musculus with 4 samples.

Results

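The genes described here are 10 genes of the dendritic cell lineage, followed in mouse liver tumors in which p53 had been switched back on. They were the transcription factor genes Zbtb46, Irf8, Irf4 and Batf3 and the receptor genes Xcr1, Clec9a, Cd209a, Siglech, Flt3 and Ccr7. All probe sets that the platform annotation assigns to exactly 1 of these symbols were taken. This gave 14 probe sets of 9 genes, among 45037 probe sets and 18193 genes on the array. Clec9a, a receptor of type 1 dendritic cells for dead cells, had no such probe set and was not analysed here. Zbtb46 had 4 probe sets, Irf8 and Irf4 had more than 1 as well, and the other 6 genes had 1 each.

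Total RNA from 4 liver tumor samples was measured on Affymetrix mouse arrays, 1 sample per array. Liver progenitor cells (LPCs, immature cells of the hepatocyte and bile duct lineage) had been placed into recipient livers, where they formed tumors. The tumors of both groups were driven by HrasV12, an activated RAS oncogene, and carried a tet-off short hairpin RNA against p53, which is made unless doxycycline is given. In the p53 on group (n = 2) mice had received doxycycline in the chow for 8 days, so that p53 could return. In the p53 off group (n = 2) doxycycline had been given for 0 days. The promoter of the hairpin, the number of LPC clones, the strain, age and immune status of the recipients, and whether replicates came from separate mice are not stated in the labels. What the p-values measure is thus the spread among these arrays, part or all of which may be technical. No group had doxycycline without the hairpin, so p53, doxycycline and 8 days of time cannot be told apart.

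Dendritic cells take up antigen in tissues and present it to T cells. Conventional dendritic cells depend on the cytokine receptor FLT3 and are marked by the transcription factor ZBTB46. Their type 1 branch needs IRF8 and BATF3, carries XCR1 and CLEC9A, and is known for priming cytotoxic T cells. The type 2 branch relies on IRF4, and part of it carries the lectin CD209a. Plasmacytoid dendritic cells, a source of type I interferon, carry SIGLEC-H in the mouse. Mature dendritic cells of either branch use CCR7 to migrate to lymph nodes.

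Values are the authors' RMA values on the log2 scale, so that a difference of 1 is a 2-fold change. The array medians were 7.39 and 7.39 in p53 on and 7.34 and 7.29 in p53 off. The arrays of a group correlated across probe sets with r = 0.9943 in p53 on and 0.9968 in p53 off, against 0.9699 to 0.9761 between groups. The 3' minus 5' difference of the beta-actin controls, a sign of RNA quality, moved with the groups, at 0.478 and 0.492 in p53 on and 0.395 and 0.262 in p53 off. That of the Gapdh controls moved the same way, at -0.0556 and -0.0208 in p53 on and -0.108 and -0.143 in p53 off. The part of RNA quality in the results was not tested. Epithelial markers of the tumor cells (Krt8, Krt18, Krt19, Sox9, Epcam) lay above the dimmest 40% of probe sets. The hepatocyte gene Alb was near the array median, at 7.39 and 6.96 in p53 on and 7.07 and 7.06 in p53 off.

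Of the 9 measured genes, 6 were higher in p53 on and 0 were lower at a limma adjusted p under 0.05, with each gene counted by its brightest probe set. At an unadjusted p under 0.05, 0 were lower as well, though the share of all genes at that threshold was not counted. By probe set, 10 of 14 were called higher, against 11.3% of all probe sets. Among all genes counted by their brightest probe set 13.5% were called higher and 14.2% lower. The genes that rose were Zbtb46, Irf8, Batf3, Cd209a, Flt3 and Irf4. Those not called were Xcr1, Siglech and Ccr7. The median change of the 9 genes was 0.32 on the log2 scale, against 0.023 over all genes. Both p53 on arrays lay above both p53 off arrays in 7 of the 9 genes, against 36.3% of all genes. Without p53 off replicate 1 the number of members called higher was 3, and it was 4 without any other single array. Zbtb46, Irf8 and Cd209a kept their calls under every alternative tried, although leaving out dim probe sets is no check of Cd209a, which passes that filter only through its p53 on arrays. Fitting 1 probe set per gene reuses the same values, as does averaging probe sets for Cd209a, so these are weak checks. Batf3 lost its call under 2 alternatives, both of which leave out an array. Flt3 and Irf4 lost theirs under more, 6 of 12 for Flt3 and 8 of 11 for Irf4.

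**Figure D1:**
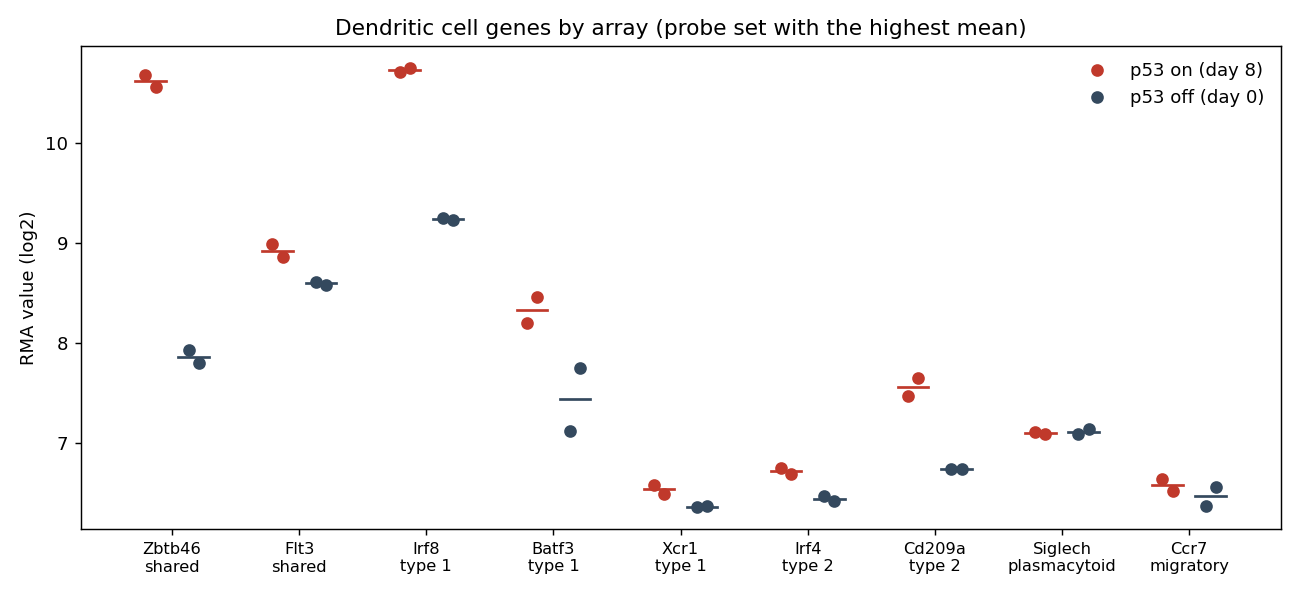
RMA value (log2, vertical axis) of the brightest probe set of each measured gene in each array, with p53 on to the left of p53 off; points are arrays and lines are group means. Zbtb46 and Irf8 show the widest separation, with means of 10.62 in p53 on against 7.86 in p53 off and of 10.73 in p53 on against 9.24 in p53 off, while the arrays of Siglech and Ccr7 overlap.

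Zbtb46 encodes a zinc finger repressor that marks conventional dendritic cells and is also made by blood endothelial cells. It had 10.68 and 10.56 in p53 on, against 7.93 and 7.80 in p53 off, in its brightest probe set (1454884_at). The groups were separated by far more than the spread within either of them. The change was 2.75 ± 0.087 on the log2 scale (± SE from limma, 2 arrays a group), or 6.75-fold (limma adjusted p = 0.000375). The other 3 probe sets were also higher in p53 on, but by less. Probe set 1440489_at had 8.75 and 8.67 in p53 on and 7.77 and 7.40 in p53 off, a change of 1.13 ± 0.13 (limma adjusted p = 0.00396). Probe set 1429168_at had 7.91 and 8.03 in p53 on and 7.18 and 6.76 in p53 off, a 1.99-fold difference (limma adjusted p = 0.00802). Probe set 1453856_at changed by 0.34 ± 0.085 (limma adjusted p = 0.0402). The groups did not overlap in any of the 4, and the size therefore depends on the probe set used. Averaged over its 4 probe sets the gene changed by 1.30. The call of 1453856_at was lost whichever array was left out, at adjusted p = 0.0624 and 0.213 without p53 off replicates 1 and 2 and 0.0998 and 0.0763 without p53 on replicates 1 and 2. In a sample of mixed cells such a rise does not tell more cells of a type from more RNA per cell.

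The genes whose 4 array values ran closest to those of Zbtb46, each centred on its own mean, were Tril, Kctd12b and Kank1. Their Euclidean distances over the 4 arrays were 0.148, 0.175 and 0.198 on the log2 scale. Tril, which encodes a co-factor of Toll-like receptors, had 10.07 and 9.90 in p53 on and 7.23 and 7.31 in p53 off. With 4 arrays in 2 groups, likeness of this kind is mostly a likeness of the size of the change.

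Flt3 encodes the receptor for the growth factor that expands dendritic cells and their progenitors. It had 8.99 and 8.86 in p53 on and 8.61 and 8.58 in p53 off. The groups did not overlap, and the change was small, at 0.32 ± 0.079 (1.25-fold; 95% interval 0.13 to 0.52; limma adjusted p = 0.0377). The call was lost without p53 off replicate 1 (0.127), without p53 off replicate 2 (0.19) and without p53 on replicate 1 (0.122). Median centring of the arrays (0.0824) and trend and robust eBayes (0.0549) ended it too, so that its adjusted p ran from 0.0102 to 0.19 over the alternatives. The ligand gene Flt3l was not analysed here.

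Irf8 encodes the transcription factor that type 1 and plasmacytoid dendritic cells need, and monocytes, macrophages and B cells make it too. It had 10.71 and 10.75 in p53 on, against 9.25 and 9.23 in p53 off (1416714_at). The arrays of each group lay within 0.1 of each other. The change was 1.49 ± 0.070 (2.82-fold; limma adjusted p = 0.000504). The second probe set (1448452_at) had 9.85 and 10.10 in p53 on and 9.08 and 8.79 in p53 off. It gave a change of 1.04 ± 0.13 (2.05-fold; limma adjusted p = 0.00511), so both probe sets of the gene rose.

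Batf3, a basic leucine zipper factor gene that sustains type 1 dendritic cells, had 8.20 and 8.46 in p53 on and 7.12 and 7.75 in p53 off. The p53 off arrays lay farther apart than those of any other member's brightest probe set (SD 0.44, n = 2), and the groups did not overlap. The change was 0.89 ± 0.21 (1.86-fold; 95% interval 0.36 to 1.43; limma adjusted p = 0.0359). Without p53 off replicate 1, the lower of that pair, it was 0.58 (limma adjusted p = 0.0736). Without p53 on replicate 2 it was 0.76 (limma adjusted p = 0.0765).

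Xcr1 encodes the receptor of type 1 dendritic cells for the chemokine XCL1. It had 6.58 and 6.49 in p53 on and 6.36 and 6.37 in p53 off. The groups did not overlap, but the change of 0.17 ± 0.073 missed the threshold (limma adjusted p = 0.165), with a 95% interval from -0.013 to 0.35. Its probe set was among the dimmest 40%, where RMA values lie near background and changes can be compressed. Scaling the arrays to spike-in controls raised the change to 0.30 and gave a call (limma adjusted p = 0.0348); the adjusted p ran from 0.0348 to 0.469 over the alternatives. Xcl1 itself, a chemokine gene of NK cells and cytotoxic T cells, had 7.08 and 7.09 in p53 on and 6.77 and 6.66 in p53 off. That p53 off pair lay under 6.86, the bound of the dimmest 40% of probe sets. The change was 0.37 ± 0.076 (limma adjusted p = 0.022). That call was lost whichever array was left out (limma adjusted p = 0.0609 and 0.142 without p53 off replicates 1 and 2, and 0.0529 and 0.0547 without p53 on replicates 1 and 2).

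Irf4 encodes the factor that type 2 dendritic cells use, which activated T cells and plasma cells also make. Its brighter probe set (1421173_at) had 6.75 and 6.69 in p53 on and 6.47 and 6.42 in p53 off. The groups did not overlap, and the change was 0.28 ± 0.073 (1.21-fold; limma adjusted p = 0.0483). This call was lost whichever array was left out (limma adjusted p = 0.134 and 0.236 without p53 off replicates 1 and 2, and 0.147 and 0.077 without p53 on replicates 1 and 2). Quantile normalization (0.0842), median centring (0.124) and averaging the probe sets (0.115; change 0.17) ended it too. Its second probe set (1421174_at) had 5.91 and 5.96 in p53 on and 5.93 and 5.80 in p53 off, and these groups overlapped. It was not called (0.073 ± 0.081; limma adjusted p = 0.58), and median centring of the arrays put its change at -0.0015. Both probe sets were among the dimmest 40%.

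Cd209a encodes a mouse relative of the lectin DC-SIGN, found on type 2 and monocyte-derived dendritic cells. It had 7.47 and 7.65 in p53 on, against 6.74 and 6.74 in p53 off. The groups did not overlap. The p53 off pair lay under 6.86, the bound of the dimmest 40% of probe sets, where values lie near background, so its close agreement says little, and the fold is over a group at that level. The change was 0.82 ± 0.088 (1.77-fold; 95% interval 0.60 to 1.04; limma adjusted p = 0.00294). It stayed between 0.73 and 0.95 under the alternatives.

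Siglech, which encodes a receptor of the SIGLEC family on plasmacytoid dendritic cells, had 7.11 and 7.09 in p53 on and 7.09 and 7.14 in p53 off. The groups overlapped, and the change was -0.0093 ± 0.071 (limma adjusted p = 0.948). The 95% interval, from -0.19 to 0.17, lies below the change of Irf8. Scaling to spike-in controls turned the sign, to 0.12.

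Ccr7 encodes the receptor that guides mature dendritic cells, naive T cells and B cells towards CCL19 and CCL21. It had 6.64 and 6.52 in p53 on and 6.37 and 6.56 in p53 off. The groups overlapped, and the change was 0.11 ± 0.097 (95% interval -0.13 to 0.36; limma adjusted p = 0.469). Its probe set was also among the dimmest 40%. The ligand genes Ccl19 and Ccl21a were not analysed here.

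**Figure D2:**
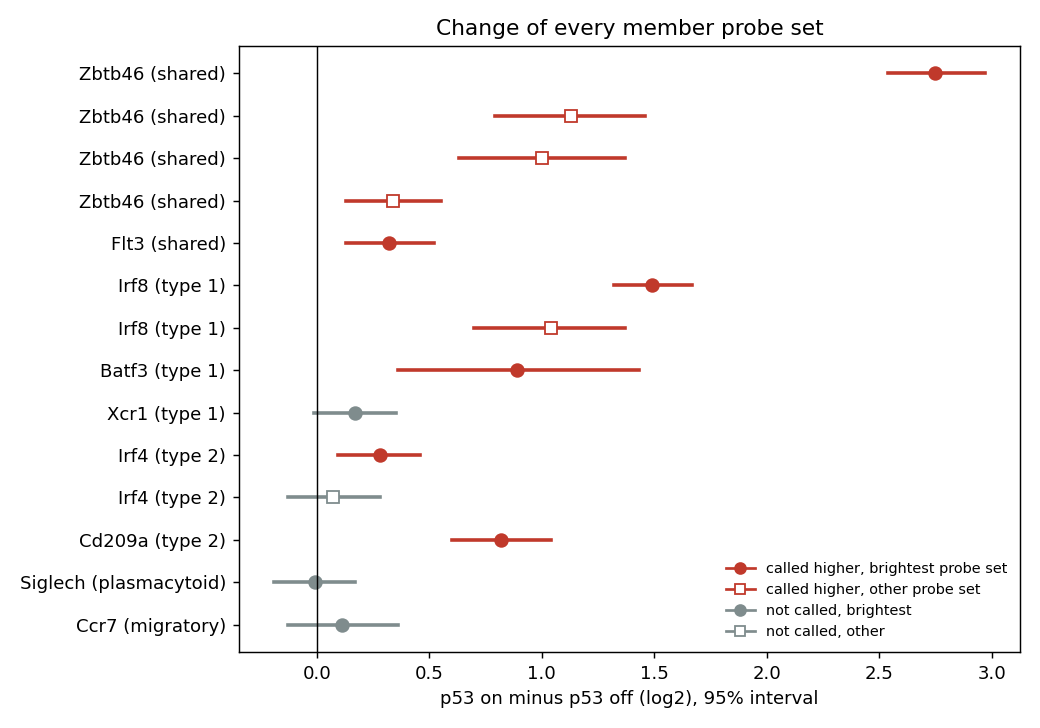
Change of each of the 14 probe sets (p53 on minus p53 off, log2, horizontal axis) with its 95% interval from limma; filled circles are the brightest probe set of a gene, open squares its other probe sets, and red marks those called higher. The 4 grey intervals, of Xcr1, the second Irf4 probe set, Siglech and Ccr7, include 0.

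The changes can be set side by side by branch. Irf8 and Batf3 of the type 1 branch changed by 1.49 and 0.89, and the type 1 receptor gene Xcr1 by 0.17. In the type 2 branch the order was the other way, with the factor gene Irf4 at 0.28 and the receptor gene Cd209a at 0.82. The difference between the Irf8 and Irf4 values within an array, in which the brightness of the probe sets cancels between groups, was 3.96 and 4.07 in p53 on and 2.78 and 2.81 in p53 off. Irf8 thus changed by 1.22 more than Irf4 on the log2 scale. For Irf8 and Xcr1 the within-array difference was 4.14 and 4.26 in p53 on and 2.89 and 2.86 in p53 off. For Irf8 and Siglech it was 3.60 and 3.66 in p53 on and 2.16 and 2.10 in p53 off. For Cd209a and Irf4 it was 0.72 and 0.96 in p53 on and 0.27 and 0.32 in p53 off. For Batf3 and Xcr1 it was 1.62 and 1.97 in p53 on and 0.77 and 1.38 in p53 off. The groups did not overlap in any of these 5 pairs. The pairs were picked with the changes of their genes known, so the separation is no test. No share over other pairs of genes was counted. With 2 arrays a group an exact two-sided permutation test cannot go below p = 0.333, which is the value it gave for Irf8 and Irf4, so the differences between branches are descriptions. Xcr1, Irf4 and Ccr7 were the 3 genes dim by their mean, and the p53 off values of Cd209a lay under the same bound. The values of Siglech lay not far above it. Such changes can be compressed.

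The start sites of the genes that rose most are shown as a description. With 2 groups of arrays every gene called higher rises with the others, which shows no shared regulation. RefSeq promoter windows (GRCm38.p6), from 250 bases before to 50 after an annotated start, were at hand for 9 of the 10 genes and were searched on both strands for 4 motifs. These were TTCNNNGAA, the palindrome bound by STAT factors, GAAANNGAA, a core of interferon-response elements, GGAANNGAA, a core of the joint site of PU.1 and IRF4 or IRF8, and TGANTCA, the AP-1 site that BATF factors bind with JUN. TTCNNNGAA and TGANTCA read the same on both strands, and no matches in the windows printed here overlap. Capitals mark the matches, and all sequences run 5′ to 3′ on the strand of the gene. The 2 matches of the first motif in Irf8 start 171 and 153 bases before the start site, and the AP-1 match of Zbtb46 starts 61 bases before it. The Irf8 window lies at chr8:120736108-120736407 on the plus strand. The Zbtb46 window lies at chr2:181424339-181424638 on the minus strand, around a start site inside the annotated span of the gene.
Irf8: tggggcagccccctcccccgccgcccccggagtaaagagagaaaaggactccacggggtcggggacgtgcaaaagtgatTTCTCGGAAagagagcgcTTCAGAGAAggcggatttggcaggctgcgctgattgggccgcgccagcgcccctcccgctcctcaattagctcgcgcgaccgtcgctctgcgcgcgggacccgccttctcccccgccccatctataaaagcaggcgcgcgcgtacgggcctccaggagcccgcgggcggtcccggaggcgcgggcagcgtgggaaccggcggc
Zbtb46: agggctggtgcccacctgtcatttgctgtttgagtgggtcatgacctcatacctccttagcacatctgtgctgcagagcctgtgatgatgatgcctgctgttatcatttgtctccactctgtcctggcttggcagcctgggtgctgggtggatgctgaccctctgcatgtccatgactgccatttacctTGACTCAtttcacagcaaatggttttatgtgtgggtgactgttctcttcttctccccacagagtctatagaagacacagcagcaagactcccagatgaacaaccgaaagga

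Of the other genes that rose, Batf3 held TTCNNNGAA, starting 239 bases before its start site. Cd209a held GGAANNGAA 152 bases before its start site and the same motif on the other strand 8 bases before it. For Batf3 the 40 bases around the match are shown, at chr1:191098164-191098203 on the plus strand, and for Cd209a the whole window, at chr8:3748935-3749234 on the minus strand.
Batf3: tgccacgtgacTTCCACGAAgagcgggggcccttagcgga
Cd209a: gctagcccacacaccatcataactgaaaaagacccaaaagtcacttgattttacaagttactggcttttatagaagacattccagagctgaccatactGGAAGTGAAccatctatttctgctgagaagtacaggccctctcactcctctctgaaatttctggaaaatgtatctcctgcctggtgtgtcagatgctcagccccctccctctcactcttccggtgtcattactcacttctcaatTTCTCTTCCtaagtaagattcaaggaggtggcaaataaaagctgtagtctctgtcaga
Siglech, which was not called, also held TTCNNNGAA in its window, and Clec9a held GAAANNGAA on the other strand. The windows of Flt3, Irf4 and Xcr1 and the second window of Irf8 held none of the 4 motifs. The share of all 32851 RefSeq promoter windows with a match was 8.3% for TTCNNNGAA, 8.56% for GAAANNGAA, 8.24% for GGAANNGAA and 7.81% for TGANTCA. The 4 motifs were kept from 7 after matches in these genes had been seen, and GAAANNGAA and GGAANNGAA are shortened forms. The Clec9a match and the Cd209a match 152 bases before the start site appeared with the shortened forms. These matches are letters in a window and do not show that a factor binds there.

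Further genes of each dendritic cell type were listed to set beside the members. The counts of these lists, and of the lists of other cell types below, stand beside 13.5% of all genes called higher and 14.2% called lower. The share of all genes at an unadjusted p under 0.05 was not counted. Of 13 other type 1 genes 4 rose and 4 fell (median change 0.069). Wdfy4, which type 1 dendritic cells need to present antigen from dead cells, rose by 0.96 ± 0.083 and Tlr3, a sensor of double-stranded RNA, by 0.87 ± 0.091. Ly75, the endocytic receptor DEC-205, had 6.23 and 6.36 in p53 on and 8.50 and 8.89 in p53 off and fell by 2.40 (SE 0.14). Cd24a, a surface glycoprotein, fell by 1.53 (SE 0.080). Ly75 and Cd24a are also made by epithelial cells. Of the epithelial markers of these tumors Krt8, Krt18, Krt19 and Sox9 fell, by 1.36, 1.61, 1.04 and 0.81. Epcam rose by 0.52 ± 0.071 (limma adjusted p = 0.00587), in a probe set marked for likely cross-hybridization. The part of epithelial cells in the falls of Ly75 and Cd24a was not tested. Wdfy4 was at 0.49 when its probe sets were averaged.

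Of 9 measured other type 2 genes 4 rose and 1 fell (median 0.39). Clec10a, a galactose-binding lectin, had 8.93 and 8.20 in p53 on and 6.70 and 6.98 in p53 off (1.72 ± 0.25). The inhibitory receptor gene Sirpa rose by 0.93 ± 0.076 (0.59 when its probe sets were averaged) and the lectin gene Mgl2 by 0.85 ± 0.087. Macrophages make all 3 as well. The number that fell was 0 without either p53 off array or p53 on replicate 2, and 2 without p53 on replicate 1. It was 2 after median centring and 0 with quantile normalization, spike-in scaling or averaged probe sets.

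Of 14 measured other plasmacytoid genes 2 rose and 0 fell by limma (6 and 0 at an unadjusted p under 0.05; median 0.24). The share that rose is near the 13.5% of all genes called higher. Tcf4, the factor that sets plasmacytoid identity and is widely made in other cells, rose by 1.34 ± 0.12, and Tlr7, a sensor of single-stranded RNA, by 1.21 ± 0.097 (0.42 when its probe sets were averaged). Tlr7 was among 4 dim members of the list. The number that rose was 4 without p53 on replicate 1 and 8 with spike-in scaling. The 12 genes not called ran from -0.12 in Ly6d, which was dim, to 0.72 in the interferon regulator gene Irf7 (limma adjusted p = 0.0837).

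Of 16 measured other genes of mature or migratory dendritic cells 7 rose and 1 fell (8 and 3 at an unadjusted p under 0.05; median 0.20). After median centring 3 fell, and 2 fell when probe sets were averaged. Cd83, a marker of maturation, had 9.29 and 8.81 in p53 on and 7.11 and 7.17 in p53 off (1.91 ± 0.16). The costimulatory ligand gene Cd86 rose by 0.71 ± 0.073 and Birc3, a target of NF-kB, by 0.83 ± 0.11. Socs2, a cytokine signalling inhibitor gene, fell by 0.77 (SE 0.076), with a change of -0.32 when its probe sets were averaged. Without p53 off replicate 2 the number that rose was 3, and Birc3 was no longer called (limma adjusted p = 0.0515).

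Among genes shared by dendritic and other myeloid cells 5 of 9 rose and 0 fell by limma (6 and 0 at an unadjusted p under 0.05; median 0.47). With spike-in scaling 8 rose. Cd74, the invariant chain of MHC class II, had 12.81 and 12.95 in p53 on and 10.79 and 10.81 in p53 off (2.09 ± 0.081). The lymphoid and myeloid factor gene Ikzf1 rose by 1.11 ± 0.095 (0.58 when its probe sets were averaged). Itgax, which encodes the integrin CD11c, had 9.79 and 9.80 in p53 on and 9.18 and 9.13 in p53 off (0.64 ± 0.071). Csf2, the gene of the growth factor GM-CSF that drives dendritic cell differentiation in culture, had 7.79 and 7.81 in p53 on and 9.61 and 9.40 in p53 off, and fell by 1.71 (SE 0.093; limma adjusted p = 0.000612). With Xcl1 and Csf1, a macrophage growth factor gene, it made up the 3 measured of 6 ligands and growth factors, of which 2 rose and 1 fell (median 0.37). Csf1 rose by 0.45 ± 0.081, was not called without p53 off replicate 2 (limma adjusted p = 0.102) and was at 0.18 when its probe sets were averaged (limma adjusted p = 0.092). The number that rose was 0 without p53 off replicate 2 and 1 without any other single array.

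Markers of other cell types that share these genes were counted in the same way. Of 12 macrophage markers 8 rose and 0 fell by limma (8 and 0 at an unadjusted p under 0.05; median 0.82), among them Adgre1 at 1.17 ± 0.091 and Csf1r at 1.16 ± 0.10. Their summed level, as the log2 of the sum of linear values, was 14.94 to 15.14 in p53 on and 14.05 to 14.20 in p53 off, and Marco and Timd4 were dim. Of 7 endothelial markers, relevant to Zbtb46, 4 rose and 1 fell (median 0.64), with a summed level of 12.24 to 12.57 in p53 on and 11.94 to 12.17 in p53 off. Those that rose were Pdpn, Pecam1, Cdh5 and Kdr, by 1.01, 0.71, 0.71 and 0.64. Lyve1, the brightest of the list in p53 off (10.86 and 10.55), was the gene that fell (by 0.69), and Prox1 was dim. Without either p53 off array 1 of them was called higher, and without p53 off replicate 1 0 were lower. Of 9 B cell and plasma cell markers 2 rose and 1 fell (median 0.079), and the summed level was 12.75 to 12.80 in p53 on and 13.02 to 13.10 in p53 off. The brightest of them was Sdc1, which epithelial cells also make, at 12.21 and 12.26 in p53 on and 12.68 and 12.80 in p53 off, and it was the gene that fell; Cd22 and Prdm1 rose, by 0.59 and 0.67. Without p53 off replicate 2, 1 rose and 0 fell. The B cell genes Cd79a, Cd79b and Ms4a1 were dim. Of 8 T cell markers 0 were called by limma (2 higher and 0 lower at an unadjusted p under 0.05; median 0.079), and 1 was called higher without p53 on replicate 1 or with probe sets averaged, and 2 with spike-in scaling. Their summed level was 10.24 to 10.27 in p53 on and 10.11 to 10.13 in p53 off, with Cd3d, Cd3g, Cd5, Cd28 and Foxp3 dim. The part of these cell types in the changes of Zbtb46, Irf8, Irf4, Batf3 and Cd209a was not tested.

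Monocytes, NK cells and neutrophils were followed by the same kind of list. Of 6 monocyte markers 2 rose and 0 fell by limma (3 and 0 at an unadjusted p under 0.05; median 0.65), with a summed level of 14.47 to 14.61 in p53 on and 14.47 to 14.47 in p53 off. That sum was mostly Fn1, at 14.21 and 14.11 in p53 on and 14.17 and 14.24 in p53 off. The genes that rose were Ccr2 (1.10 ± 0.18) and Cx3cr1 (0.51 ± 0.079). Without either p53 off array 0 of them were called higher. Among NK cell markers Gzma rose most, with 10.58 and 12.05 in p53 on and 9.06 and 8.45 in p53 off (2.55 ± 0.48). Of 5 NK cell markers 4 rose and 0 fell (5 and 0 at an unadjusted p under 0.05; median 0.69), with a summed level of 11.23 to 12.38 in p53 on and 9.83 to 10.16 in p53 off. Without either p53 off array 1 of them was called higher. Of 5 neutrophil markers 1 rose and 0 fell (2 and 0 at an unadjusted p under 0.05; median 0.18), with a summed level of 10.04 to 10.53 in p53 on and 9.97 to 10.66 in p53 off. Without either p53 off array or without p53 on replicate 2, 0 of them were called higher, and 2 were with spike-in scaling or averaged probe sets. Afp, a progenitor and tumor marker that was not called, had 8.47 and 5.33 in p53 on and 9.16 and 9.15 in p53 off. The p53 on arrays thus differed widely in this gene. Of 9 hepatocyte, progenitor and tumor epithelial markers 5 fell and 1 rose (median -0.81), with a summed level of 14.00 to 14.12 in p53 on and 15.20 to 15.42 in p53 off. Without p53 off replicate 2, 5 fell and 0 rose.

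**Figure D3:**
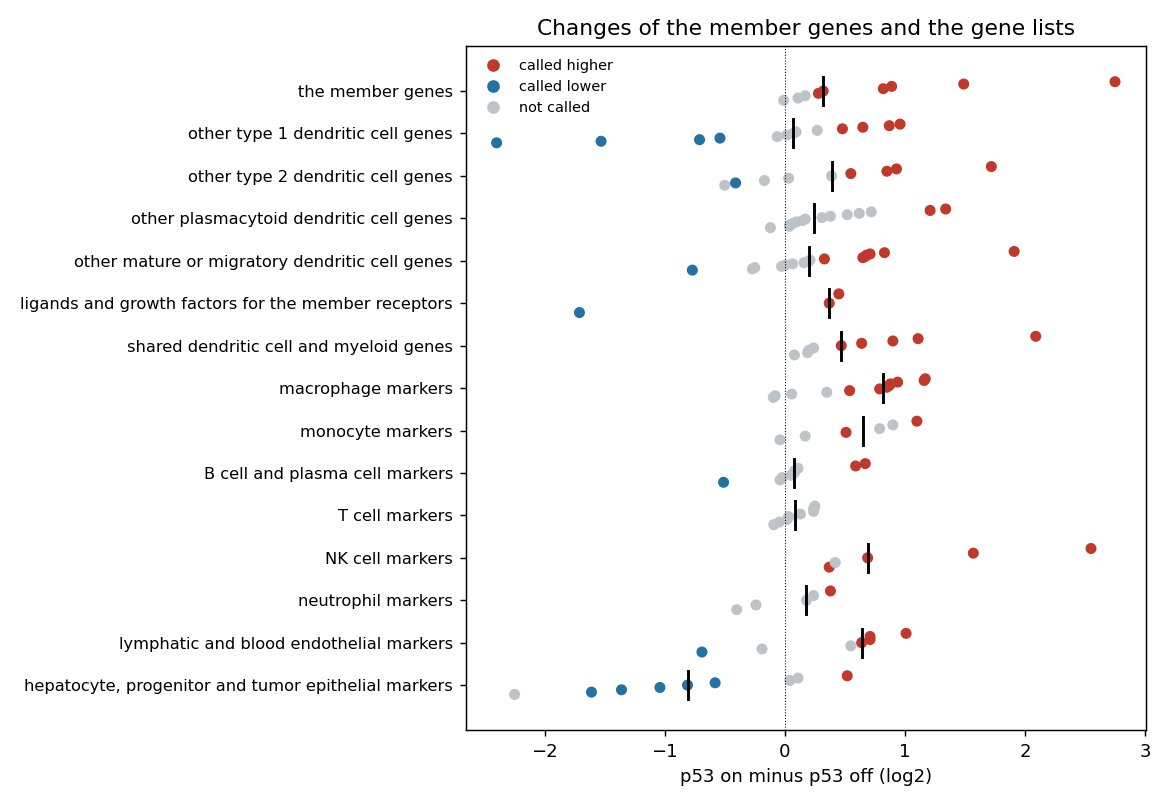
Change of each gene (p53 on minus p53 off, log2, horizontal axis) for the 9 measured members and for each gene list, by the brightest probe set; red and blue points were called higher and lower, grey points were not called, and black bars are list medians. The members lie between -0.0093 and 2.75 with a median of 0.32. The list medians run from -0.81 for hepatocyte, progenitor and tumor epithelial markers to 0.82 for macrophage markers.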

How the data were processed

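RNA of 4 tumor samples was amplified and labelled with biotin, as the labels' protocols state, and the sample titles gave the groups and replicate numbers. The deposited values are log2 expression values that the authors made with RMA (background correction, quantile normalization between arrays and summarisation), per the submitters' processing notes; these also name limma 3.14.4. The annotation build is not stated. Values ran from 4.66 to 14.9 with no detection call, so dim probe sets sit close to background, and the number of arrays limits the precision.

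The 45037 probe sets left after removing 64 controls were each given a linear model (lmFit, eBayes; limma 3.58.1 in R 4.3.3) of the p53 on minus p53 off difference, unblocked, with 2 residual and 5.53 total degrees of freedom. The Benjamini-Hochberg adjustment ran over all of them, and adjusted p under 0.05 was called. A platform annotation gave 34945 probe sets 1 gene symbol, 932 several and 9160 none; a gene was counted by its brightest probe set (highest mean of the 4 arrays). None of the 14 member probe sets carries a mark of likely cross-hybridization. Among the named list genes, the probe sets of Epcam, Sdc1, Tlr3 and Socs2 do. Dim means among the 40% of probe sets with the lowest mean (under 6.86). Intervals are at 95%.

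The members, the 14 gene lists (137 genes, 125 measured) and the tests were chosen with earlier results of these data known. Named list genes were drawn from the up to 4 called genes of largest change in each list, and not all of those are named. The patterns most like that of the member with the largest change were named too. Ly6d, Irf7, Fn1, Kdr, Epcam, Alb and Afp, and genes named only as dim or to describe the tumor tissue, were chosen after their values were seen. In 45037 probe sets simulated for p53 on against p53 off, the fit called 2 of 50 changed by 0.5 on the log2 scale, 41 of 50 changed by 1 and 50 of 50 changed by 2. It called 151 probe sets in that simulation, against 5076 higher and 5196 lower in the data. The Benjamini-Hochberg cutoff was thus stricter in the simulation, and recovery in the data was not measured. Of 7 motifs searched, 3 were dropped and 2 shortened after matches in the members had been seen, and a shorter motif matches more windows. Motifs were searched with Python 3.11.15; figures were drawn with matplotlib 3.10.9. Alternatives were a replicate block, quantile normalization, median centring, spike-in scaling, leaving out dim probe sets, 1 probe set per gene, the mean of the probe sets of a gene, trend and robust eBayes, and leaving out each array in turn, the lone array being assumed to vary like the other group.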

Additional observations from a re-analysis of the deposited data

How the results depend on the processing

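Zbtb46, Irf8 and Cd209a kept direction and call under all 12 alternatives (for Cd209a leaving out dim probe sets is no check, as it passes only through p53 on), with adjusted p between 5.02e-05 and 0.00811, 0.000108 and 0.0101, and 0.00102 and 0.0313. Batf3 lost its call under 2 of 12 and Flt3 under 6 of 12. Irf4 lost its call under 8 of 11. Leaving out dim probe sets removed Irf4, Xcr1 and Ccr7, so they have no value there. Fitting 1 probe set per gene kept the values of the brightest probe sets, so the changes were the same. Averaging probe sets did so too for genes with 1 probe set, such as Cd209a, Batf3 and Flt3. These alternatives are weak checks. Zbtb46 probe set 1453856_at was not called with quantile normalization (0.0638) or median centring (0.0642). The number of probe sets called higher was 5076, and 5196 were lower. The share of calls that were higher was 49.4%, against 37.7% after median centring and 72.9% after spike-in scaling. Spike-in scaling gave 10206 higher probe sets and moved the median change of all probe sets by 0.13; against that median of 0.16, Siglech at 0.12 stood lower and Xcr1 at 0.30 higher. With 1 probe set per gene 2550 were higher and 2673 lower, and with probe sets averaged by gene 2463 and 2548, since fewer features were tested. Leaving out each array in turn gave 1938 to 4644 higher and 2110 to 4916 lower probe sets and 3 to 4 members higher. The change of Siglech then ran from -0.034 to 0.015. The other Irf4 probe set was at -0.0015 after median centring. With the replicate number as a block 3933 probe sets were higher and 4283 lower, and 4 members were higher (Flt3 at adjusted p = 0.0648 and Irf4 at 0.0833 were not called, nor were Zbtb46 probe set 1453856_at at 0.0635 and Xcl1 at 0.0502). Under that block 1 neutrophil marker was lower, 0 endothelial markers were lower and 1 ligand was higher. The numbers are not known to pair the samples (correlation of the deviations of same-numbered arrays r = -0.0825 over 45037 probe sets). Changes near 0.5 on the log2 scale were seldom recovered in simulated data, where far fewer probe sets changed than here. The simulated cutoff was therefore stricter, and the recovery in these data was not measured. The causes of the lost calls were not tested.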
